A study of Mus musculus with 686 samples.

Results

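The miR-200 and miR-141 family, which the study names MIR-8, is made up of 5 mature mouse miRNAs, mmu-miR-200a-3p, mmu-miR-200b-3p, mmu-miR-429-3p, mmu-miR-200c-3p and mmu-miR-141-3p, written below without the species prefix. They were chosen by name, as the dominant strands of the family's hairpins, out of 1964 miRNAs in the deposited table. Their levels were followed by small RNA sequencing in 686 libraries of 13 mouse tissues, each library being the tissue of a single mouse. The mice were female BALB/cAnNTac of 3 or 8 months, with no engineered allele named in the labels. The spaceflight arm (FL) lived on the International Space Station, the habitat ground control (HGC) lived on Earth in flight-type housing, and the vivarium ground control (VGC) lived in standard cages. The live animal return groups (LAR, 348 libraries) came back alive before tissues were taken, and their controls were handled in parallel. The terminal groups (TERM, 338 libraries) were killed on orbit, or on Earth for the controls, and apart from the spleen their tissues were dissected from carcasses that had been frozen whole and thawed. Time of death and freezing therefore cannot be told apart in any comparison of TERM with LAR. Mould on the food affected the FL and HGC arms. Brain of LAR and pancreas of TERM came from mice of 3 months only, and a tissue had 2 to 10 libraries per arm within LAR or TERM.

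Family members are best known as miRNAs of epithelial cells, where they repress the transcription factors Zeb1 and Zeb2 and so hold up E-cadherin and the epithelial state. Zeb1 and Zeb2 in turn repress the miRNA genes, a loop in which either side can keep the other low. The members are made from 2 genomic clusters, and muscle, fat cells and most neurons are not known as sites of high expression.

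The mature sequences, shown because the members fall into 2 seed groups that cut across the 2 clusters, were taken from RefSeq for all 5 members. The capitals mark the seed, bases 2 to 8 from the 5′ end, which is the main determinant of target choice.

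mmu-miR-200b-3p: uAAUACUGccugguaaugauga

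mmu-miR-429-3p: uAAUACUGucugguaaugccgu

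mmu-miR-200c-3p: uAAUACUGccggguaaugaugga

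mmu-miR-200a-3p: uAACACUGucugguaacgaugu

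mmu-miR-141-3p: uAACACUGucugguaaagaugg

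The seed AAUACUG was carried by 3 of the 1679 mature mouse miRNAs in the RefSeq table, and AACACUG by 2, so no miRNA outside the family shared either seed. The seed groups were separated by a single base, U4C from miR-200b-3p to miR-141-3p, with positions counted from 1 at the 5′ end. Between the clusters the closest pairs differed by 2 bases over the first 22 positions, U11G and A22G from miR-200b-3p to miR-200c-3p, and C17A and U22G from miR-200a-3p to miR-141-3p. In GRCm38.p6 the miR-200b-3p (chr4:156055685-156055706), miR-200a-3p (chr4:156054911-156054932) and miR-429-3p (chr4:156053916-156053937) sequences lay on the minus strand, with their hairpins within 1846 bases. All 3 hairpins were inside introns of the protein-coding gene Ttll10 on the same strand, and that of miR-429 also overlapped an exon of the noncoding transcript Gm13648. The miR-200c-3p (chr6:124718324-124718346) and miR-141-3p (chr6:124717917-124717938) sequences, also on the minus strand, belonged to hairpins within 477 bases, in an intron of the noncoding gene Gm15884, and the miR-141 hairpin overlapped an exon of Gm29008. Because members within a seed group are so alike, a read can in principle fit more than 1 of them, although all counts of the 5 members were whole numbers.

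Levels are given in CPM, the count scaled to 1000000 miRNA counts in the library. Libraries held 0.181 M to 30.5 M miRNA counts, with a median of 3.88 M, so 3 counts, used here as the floor of detection, corresponded to 0.774 CPM in the median library and 16.5 CPM in the shallowest. Floors cover counting error only. As a check of the labels, each library was assigned to the tissue whose profile it was closest to over 720 miRNAs, with the family's hairpins left out. Each tissue profile was the median of all libraries with that label, those closest to another tissue included. Of the 686 libraries, 164 (23.9%) were closest to a tissue other than the one on the label, and 117 of these were in 11 of the 44 sequencing pools. The number was 0 of 25 in brain, 7 of 58 in liver, 10 of 57 in kidney, 19 of 59 in diaphragm and 43 of 57 in mesenteric fat (MAT). The MAT profile was thus built mostly from libraries that did not match it (median r to the label 0.547). Matching libraries of MAT are therefore a less certain set than those of other tissues. Main results are therefore also given for the 522 libraries whose profile matched the label. In bulk RNA, fewer cells of a type and less miRNA per cell cannot be told apart.

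The family was highest in the pancreas and in the epithelial organs, and lowest in the heart. In the pancreas the summed family was 1037 to 139222 CPM with a median of 82500.5 CPM over 39 libraries, that is 8.25% of all miRNA counts. In the kidney, with its tubular epithelium, it was 146 to 44590 CPM (median 32297, n = 57), and in the lung 140 to 32554 CPM (median 15923, n = 58). Subcutaneous fat (SCAT) followed with a median of 10172 CPM (277 to 18566, n = 58) and the thymus, which holds an epithelial stroma, with 8921 CPM (114 to 33316, n = 58). The pancreas was 2.55-fold above the kidney, the kidney 2.03-fold above the lung and the lung 1.57-fold above SCAT. In these 3 steps the ranges from the lower to the upper quartile did not overlap, whereas they overlapped between all other neighbours in the order.

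Below these tissues the medians were 6909 CPM in MAT, 1863 CPM in brown fat (BAT), 1585 CPM in gonadal fat (GAT), 1017 CPM in the spleen, 850 CPM in the liver, 739 CPM in the diaphragm, 551 CPM in the brain and 204 CPM in the heart. The pancreas median was thus 404-fold that of the heart. The ratio was 466-fold among libraries that matched their label and 45.7-fold when counts were scaled to all 7 RNA classes in place of miRNAs. Among matching libraries the family kept a narrow range in kidney (19040 to 44590 CPM), thymus (4879 to 13172 CPM) and SCAT (5400 to 18566 CPM), with SDs of 0.24 to 0.38 on the log2 scale. The range was also narrow in lung (10131.5 to 30328 CPM) and liver (514 to 1755 CPM). It stayed wide in the heart (81.1 to 11274 CPM), the diaphragm (111 to 3979 CPM) and the brain (79.6 to 12415 CPM), with SDs of 1.60, 1.77 and 2.38. GAT was wide as well (139 to 15712 CPM). When only matching libraries were kept, the median of MAT fell to 2437 CPM and that of the diaphragm to 254 CPM, and no other tissue moved by more than 1.5-fold.

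**Figure D1:**
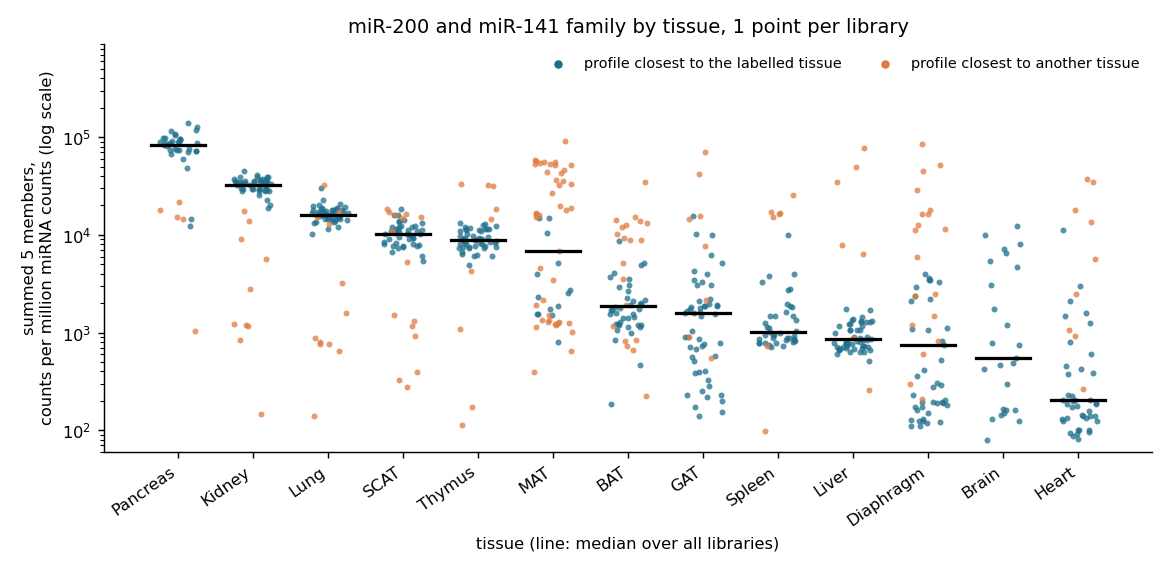
Summed level of the 5 members in every library by tissue, in CPM on a log axis; blue points are libraries whose other miRNAs were closest to the labelled tissue, orange points those closest to another tissue, and black lines are medians. The pancreas has the highest median (82500.5 CPM) and the heart the lowest (204 CPM), and in the heart, the diaphragm and the fats the highest libraries are mostly orange.

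miR-200c-3p was the most abundant member in most tissues. Its median was 39093 CPM in the pancreas, 8687 CPM in the lung, 6288 CPM in SCAT and 5537 CPM in the kidney. The kidney, the liver and the brain were the exceptions, with miR-429-3p the leading member at 43.5%, 35.8% and 37.4% of the family, against 17.9%, 24.7% and 25.3% for miR-200c-3p. In kidney the medians were 13777 CPM for miR-429-3p, 9142 CPM for miR-200b-3p, 5537 CPM for miR-200c-3p, 1405 CPM for miR-200a-3p and 669 CPM for miR-141-3p. In lung they were 2924, 2966, 8687, 396 and 522 CPM in that order. In the pancreas miR-429-3p was a smaller part of the family (10.6%) and miR-200c-3p reached 51.0%. The AAUACUG seed group made up 85.1% of the family in the spleen and 95.9% in SCAT, the lowest and the highest of the 13 tissues. Ligation during library preparation can favour some sequences, so that levels of different members within a library are less comparable than those of the same member between libraries.

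**Figure D2:**
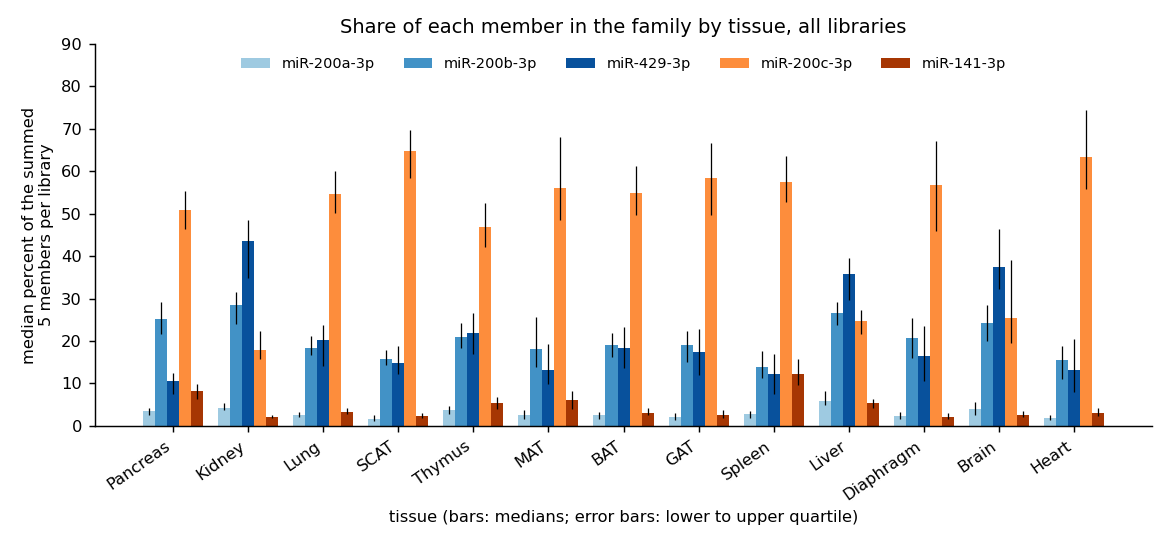
Median share of each member in the summed family by tissue, in percent, with lines from the lower to the upper quartile of the libraries. The miR-429-3p share is 43.5% in kidney and 10.6% in pancreas, while the miR-200c-3p share is 17.9% in kidney and 64.7% in SCAT.

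The balance of the clusters was then compared between the 3 organs taken as epithelial, in the same mice, as the log2 ratio of miR-200c-3p plus miR-141-3p over miR-200a-3p plus miR-200b-3p plus miR-429-3p. The kidney was tilted to the chromosome 4 cluster. The median balance was -1.99 in the kidney, with 49 of 57 libraries below 0, whereas it was 0.45 in the lung and 0.59 in the pancreas. All 47 kidney libraries that matched their label were below 0, and the 8 kidney libraries above 0 were all closest to another tissue. Over 55 mice with both organs the mean was -1.58 ± 1.15 (SD) in the kidney and 0.50 ± 0.68 in the lung. The mean difference was -2.08 on the log2 scale (SD 1.37), with the kidney lower in 47 of 55 mice (sign-flip permutation test, 2-sided, p = 1e-05, the smallest that 100000 resamples can give; adjusted p = 1.5e-05 over 3 pairs). Against the pancreas the difference was -2.23 (SD 1.30), with the kidney lower in 32 of 37 mice (same test, adjusted p = 1.5e-05). Lung and pancreas differed by -0.10 (SD 0.85, 22 of 38 mice lower in lung), which was within the spread (permutation p = 0.463, adjusted p = 0.463). Among libraries that matched their label the differences were -2.59 (36 of 36 mice), -2.66 (27 of 27 mice) and 0.01 (14 of 28 mice). The lung and pancreas result depended on how the balance was taken. With the mean of the members' log2 levels in place of their sums it was -0.67, lower in lung in 33 of 38 mice (permutation test, adjusted p = 5e-05). In TERM alone it was -0.59, lower in lung in 7 of 10 mice (permutation test, adjusted p = 0.0903), and in LAR alone 0.07.

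The same tilt was seen in the liver, with a median balance of -1.24 and 53 of 58 libraries below 0, and in the brain, with -1.40 and 22 of 25 libraries. In the remaining tissues the median was above 0, from 0.15 in the thymus to 1.23 in the spleen. The balance was compared between FL and HGC of LAR in kidney, lung and pancreas alone, and no difference passed the test. In the kidney it was -1.79 ± 0.96 (SD, n = 10) in FL and -1.64 ± 0.89 (n = 10) in HGC, a difference of -0.15 (permutation test, p = 0.631, adjusted p = 0.631 over 3 organs). In the lung it was 0.42 ± 0.20 in FL and 0.66 ± 0.50 in HGC, a difference of -0.25 (permutation test, 10 libraries each, p = 0.160, adjusted p = 0.481). In the pancreas it was 0.72 ± 0.36 (n = 10) in FL and 0.53 ± 0.59 (n = 8) in HGC, a difference of 0.19 (exact permutation test, p = 0.430, adjusted p = 0.631).

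**Figure D3:**
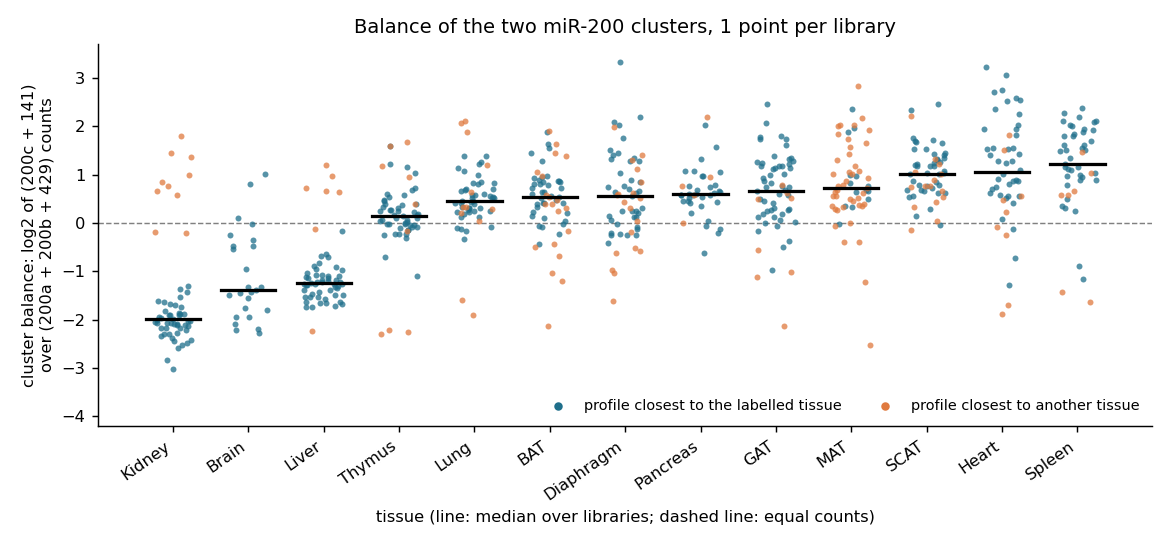
Cluster balance by library and tissue, as the log2 ratio of the chromosome 6 cluster (200c, 141) to the chromosome 4 cluster (200a, 200b, 429), with the colours of the plot of levels. Kidney, liver and brain have medians of -1.99, -1.24 and -1.40, and the other tissues have medians above 0.

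Members of a single cluster did not keep a fixed ratio either. The median log2 ratio of miR-429-3p to miR-200b-3p was 0.53 in the kidney, 0.59 in the brain, 0.41 in the liver and 0.10 in the lung, but -1.18 in the pancreas. For miR-200a-3p over miR-200b-3p it was closer across organs, at -2.60 in the kidney, -2.73 in the lung and -2.98 in the pancreas. miR-141-3p was far below miR-200c-3p in every tissue, from -2.24 in the spleen and -2.28 in the liver to -4.71 in SCAT.

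The partner 5p strands of the same hairpins, usually degraded when the 3p strand is loaded, were unequally retained. They are shown for the pairs in which they were a sizeable part of the reads.

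miR-200a-5p: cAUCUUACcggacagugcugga

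miR-141-5p: cAUCUUCCagugcaguguugga

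Among libraries with at least 200 counts for a pair, miR-200a-5p was a median of 18.0% of its pair (n = 433, 2.16% to 91.5%) and miR-141-5p 9.03% (n = 471, 0.429% to 27.3%). The shares were 0.458% for miR-200b-5p, 0.0663% for miR-200c-5p and 0.0351% for miR-429-5p, so the high shares were those of the pairs with the AACACUG seed. The share of miR-141-5p ranged from 3.45% in the pancreas to 14.5% in SCAT, and that of miR-200a-5p from 10.6% in the brain to 26.5% in SCAT.

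Across the 13 tissue medians the members followed each other, with Pearson's r from 0.86 (miR-429-3p with miR-200c-3p) to 0.99 (miR-200a-3p with miR-200b-3p). Among 593 miRNAs with a median of 10 CPM or more in a tissue, the 5 outside the family with the profile most like its sum were miR-96-5p (r = 0.82), miR-183-5p (0.80), miR-375-3p (0.79), miR-183-3p (0.79) and miR-182-5p (0.78). All 5 had their highest median in the pancreas, 547 CPM for miR-96-5p and 70853 CPM for miR-375-3p, a miRNA of pancreatic islets. miR-96, miR-182 and miR-183 come from a single cluster known from sensory epithelia. Other epithelial miRNAs were less alike, with r of 0.54 for miR-203-3p and 0.46 for miR-205-5p, both known from stratified epithelium, and 0.24 for miR-192-5p, of kidney and gut. These values describe 13 points from shared libraries.

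In the heart the family was low in most libraries and far higher in some. In the heart, a striated muscle, miR-200c-3p was 45.9 to 10017 CPM (median 153, n = 50), and miR-200a-3p 0.562 to 2104 CPM (median 4.03). The 2 highest heart libraries, FL TERM mouse 14 (37553 CPM for the family) and VGC LAR mouse 9 (34806 CPM), were both closest to kidney by their other miRNAs. The third, HGC LAR mouse 8 (17887 CPM), was closest to lung, and its summed ciliated-cell markers were 2267 CPM against a heart median of 40.1 CPM. In the 41 hearts that matched their label the medians were 128 CPM for miR-200c-3p, 19.3 CPM for miR-200b-3p, 18.6 CPM for miR-429-3p, 6.53 CPM for miR-141-3p and 2.56 CPM for miR-200a-3p. The highest of these, VGC LAR mouse 20 (11274 CPM), was in a pool of mixed profile.

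In the diaphragm, a sheet of skeletal muscle, the 3 highest libraries were HGC LAR mouse 2 (85089 CPM), FL LAR mouse 13 (51532 CPM) and VGC LAR mouse 11 (45609 CPM), and all were closest to pancreas. The miRNAs that mark the exocrine pancreas, miR-216a-5p, miR-216b-5p and miR-217-5p, summed to 40446 CPM in the first of them, against a median of 5.60 CPM over all diaphragms. In the 40 matching diaphragms miR-200c-3p had a median of 141 CPM, miR-200b-3p 52.1 CPM and miR-141-3p 6.42 CPM.

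The fats differed among themselves. SCAT held the family at 10179 CPM among its 43 matching libraries with none below 5400 CPM. The highest SCAT library, VGC TERM mouse 13 (18566 CPM), matched its label and held the stratified and mammary epithelium markers miR-205-5p and miR-203-3p at 21308 CPM, against a SCAT median of 8598 CPM and a heart median of 116 CPM. These markers differed between the fats. The tissue median of miR-205-5p was 7166 CPM in SCAT and 98.6 to 1234 CPM in the other fats. That of miR-203-3p was 1087 CPM in SCAT and 1080 to 1571 CPM in the other fats. In BAT the highest library was HGC TERM mouse 16 (34973 CPM), closest to kidney. In GAT they were VGC LAR mouse 1 (70253 CPM), closest to pancreas, and FL LAR mouse 4 (41903 CPM), closest to kidney. The third, FL LAR mouse 2 (15712 CPM), matched its label but had ciliated-epithelium markers at 1991 CPM. In MAT the highest were FL LAR mouse 3 (91443 CPM), HGC LAR mouse 2 (58364 CPM) and HGC LAR mouse 3 (57720 CPM), all closest to pancreas. The part of other tissue in these levels was not tested.

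Spaceflight was then set against the ground controls in each tissue. In kidney, lung, pancreas and thymus, where the family is abundant, no member passed the edgeR test on all libraries in any arm, age or extraction comparison. On matching libraries 1 member in the pancreas and 1 in the thymus passed for extraction, with values given with that comparison. In LAR kidney the summed family had medians of 35023 CPM in FL (n = 10), 31197 CPM in HGC (n = 10) and 29552 CPM in VGC (n = 9). In LAR lung they were 16827, 16768 and 16218 CPM. In LAR pancreas the groups were wide and overlapped, with 1037 to 118495 CPM (median 73923, n = 10) in FL, 12469 to 139222 CPM (median 93508, n = 8) in HGC and 21518 to 108107 CPM (median 84032, n = 10) in VGC. In LAR thymus the medians were 11357, 8811 and 10170 CPM. Over the 20 pairs of a member and an epithelial organ the median log2 fold change of FL against HGC in LAR was 0.06 (-0.90 to 0.79, median SE 0.49, lowest adjusted p = 0.501, edgeR quasi-likelihood test). In TERM it was -0.00 (-1.86 to 1.18, median SE 0.57).

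Over all 13 tissues, 3 of 65 pairs passed at an adjusted p below 0.05 for FL against HGC in LAR, where 1.54% of all miRNA and tissue pairs passed, and all 3 were in the liver, where 6.11% of 884 miRNAs passed and 5.88% were higher. In LAR livers miR-141-3p was 33.9 to 5423 CPM (median 46.7, n = 10) in FL, 20.4 to 160 CPM (median 31.8, n = 9) in HGC and 29.7 to 672 CPM (median 46.2, n = 10) in VGC. The 3 groups overlapped, and the highest library was in FL. The log2 fold change of FL against HGC was 3.58 ± 0.87 (SE, edgeR, adjusted p = 0.0148).

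For miR-200c-3p the LAR livers read 111 to 42183 CPM (median 156) in FL and 149 to 447 CPM (median 162) in HGC, with a log2 fold change of 4.22 ± 1.11 (edgeR, adjusted p = 0.0204) although the FL median was the lower. For miR-200b-3p they were 142 to 19186 CPM (median 199) and 112 to 333 CPM (median 185), with 3.10 ± 0.94 (edgeR, adjusted p = 0.0439). The size of these changes came from a pair of FL livers, mouse 4 with 42183 CPM and mouse 2 with 27869 CPM of miR-200c-3p.

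Both livers were closest to pancreas. Their summed family was 78402 and 49287 CPM, against 635 to 830 CPM in the 8 other FL livers and 602 to 872 CPM in all 9 HGC livers, so that without them FL and HGC overlapped throughout. In the FL group the exocrine pancreas markers ranged from 0.202 to 29193 CPM (median 2.21), and the hepatocyte miRNA miR-122-5p from 864 to 421021 CPM (median 306071). Without mouse 4 no member passed. In livers that matched their label the log2 fold changes were 0.56 for miR-141-3p (edgeR, adjusted p = 0.119), -0.17 for miR-200b-3p (0.724) and -0.31 for miR-200c-3p (0.542). Of the 5p strands, only miR-141-5p of liver passed in this comparison (3.37, adjusted p = 0.0256) of 64 pairs. Of 156 pairs of 12 other epithelial miRNAs, 8 passed, all higher in FL, with miR-375-3p (7.71), miR-96-5p (2.67) and miR-182-5p (2.41) in the liver and the rest in BAT and SCAT.

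**Figure D4:**
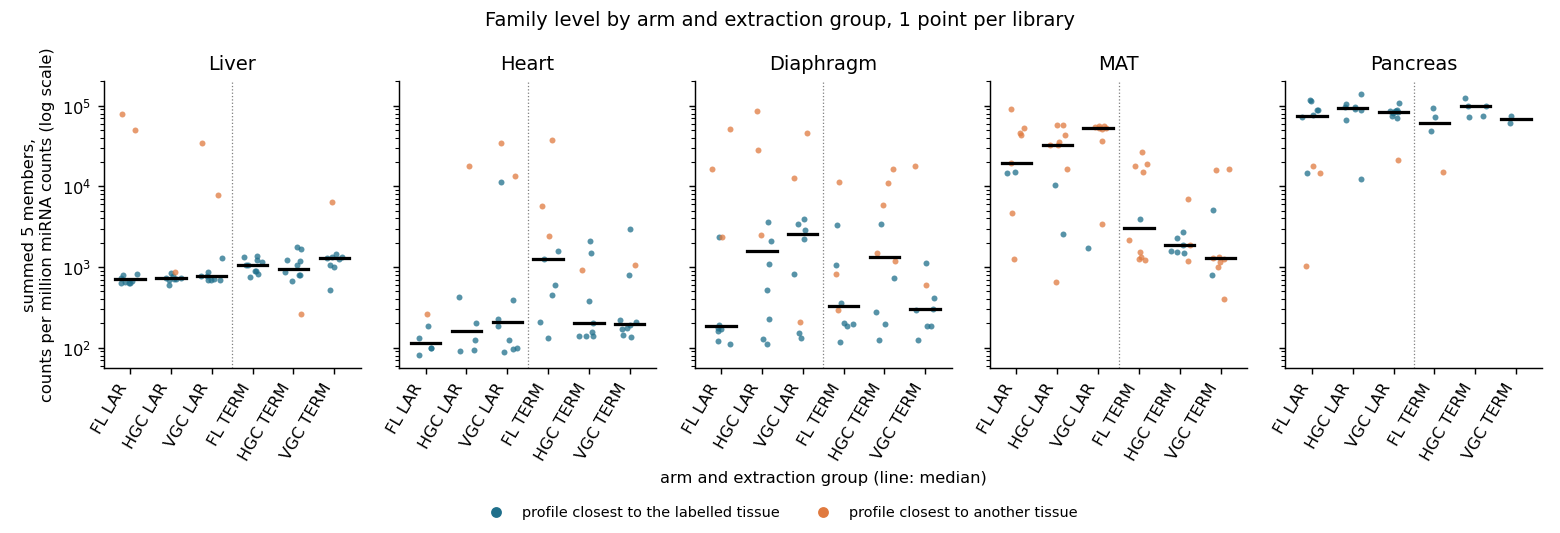
Summed family in CPM (log axis) by arm and extraction group in liver, heart, diaphragm, MAT and pancreas, with 1 point per library, the colours of the plot of levels and a black line at each median. In liver, 2 orange FL points of LAR stand at 49287 and 78402 CPM above 8 FL livers at 635 to 830 CPM.

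The other arm comparisons gave no called member by edgeR on all libraries. The 3 comparisons within LAR share libraries pairwise, as do the 3 within TERM. By edgeR the count was 0 of 65 pairs for FL against VGC in LAR (0.736% of all pairs passed, 9 member pairs at an unadjusted p below 0.05), HGC against VGC in LAR (0.176%, 9), FL against HGC in TERM (0.307%, 14), FL against VGC in TERM (0.712%, 14) and HGC against VGC in TERM (0.251%, 11). By DESeq2 the counts were 5 (0.952% of all pairs passed), 0, 1 (0.534%), 7 (0.494%) and 0, and 6 (1.46%) for FL against HGC in LAR. Of these 19 calls 9 were in the heart, 5 in the brain, 4 in the liver and 1 in the spleen. In LAR hearts all 5 members were lower in FL than in VGC (-3.36 to -5.61, DESeq2, adjusted p = 0.00224 to 0.0229). Against HGC of LAR, miR-141-3p (-4.47, adjusted p = 0.0231) and miR-200c-3p (-3.90, 0.0357) were lower in FL hearts. In TERM hearts miR-429-3p was higher in FL than in VGC (2.99, 0.0133), and miR-200c-3p higher than in HGC (1.94, 0.0491). A rule modelled on that of the study was also applied, on CPM scaled to the counts over 7 RNA classes, for the miRNAs past the filter. It asks for a difference between group medians of log2(CPM + 1) beyond 1 and for Cohen's d on that scale beyond 0.5, with no p-value. It gave 3 (1.81%), 1 (0.64%), 9 (1.17%), 13 (1.54%) and 7 (0.785%) in the order above, and 1 (1.93%, miR-141-3p of BAT) for FL against HGC in LAR. Its 13 pairs for FL against VGC in TERM were all 5 members in the heart, all 5 in the brain, miR-141-3p of lung, miR-200a-3p of pancreas and miR-429-3p of thymus. Leaving out VGC liver mouse 14 of LAR, which held 34702 CPM of the family and was closest to kidney, gave 3 calls by edgeR for FL against VGC in LAR, all in the liver and higher in FL (miR-141-3p 3.20, miR-200a-3p 2.08 and miR-200b-3p 2.74), where 3.7% of 864 miRNAs passed. Leaving out FL brain mouse 7 of TERM gave 5 for FL against VGC in TERM, which were all 5 members in the brain (3.81 to 4.48, 0.993% of 1007 miRNAs passing). That brain was the lowest of the FL brains of TERM at 131 CPM of the family. It lay below all VGC brains of TERM (142 to 163 CPM), so the overlap of the groups went with it. Of the FL brains left, mice 17 and 18 were of 8 months.

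The lowest adjusted p among these was in TERM hearts for FL against VGC, with miR-200a-3p at 3.97 ± 1.14 on the log2 scale (edgeR, adjusted p = 0.0552). The summed family in TERM hearts was 133 to 37553 CPM (median 1267, n = 9) in FL, 139 to 2111 CPM (median 202, n = 9) in HGC and 135 to 2996 CPM (median 199, n = 10) in VGC. The FL hearts ran from the control level to far above it, and 3 of the 9 were closest to another tissue. Matching TERM hearts held 133 to 1594 CPM (median 525, n = 6) in FL and 139 to 2111 CPM (median 180, n = 8) in HGC. In VGC they held 135 to 2996 CPM (median 192, n = 9). Over the 13 tissues 5 of 156 pairs of other epithelial miRNAs passed for FL against VGC in TERM, where 0.712% of all pairs passed. For FL against HGC in TERM it was 3 of 156 (0.307%). Those in the heart were all higher in FL. Against VGC these were miR-192-5p (3.14 ± 0.74 on the log2 scale, edgeR, adjusted p = 0.0250), miR-194-5p (2.62 ± 0.68, 0.0322) and miR-375-3p (3.85 ± 0.97, 0.0302), and against HGC miR-375-3p (4.95 ± 1.07, 0.0486). In FL TERM heart mouse 14, closest to kidney, miR-192-5p, miR-194-5p and miR-215-5p summed to 50099 CPM (heart median 432). In FL TERM heart mouse 1, closest to brain, miR-375-3p was 8749 CPM (heart median 28.3). The part of these miRNAs and libraries in the family values was not tested. In LAR hearts the order was the opposite, with 81.1 to 264 CPM (median 116, n = 6) in FL, 91.6 to 17887 CPM (median 164, n = 6) in HGC and 87.4 to 34806 CPM (median 207, n = 10) in VGC. Matching LAR hearts held 81.1 to 185 CPM (median 101, n = 5) in FL and 91.6 to 425 CPM (median 125, n = 5) in HGC. In VGC they held 87.4 to 11274 CPM (median 156, n = 8).

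Whether the flight difference itself differed between TERM and LAR was tested by an interaction term. Of 65 pairs 4 passed, against 1.12% of all pairs. In the heart the difference of FL and HGC was higher in TERM for miR-141-3p by 6.56 ± 1.69 and for miR-200c-3p by 5.80 ± 1.45 on the log2 scale (edgeR, adjusted p = 0.0326 for each, 0.984% of 915 heart miRNAs passing and 0.765% being higher). miR-200c-3p was 105 to 6945 CPM (median 833) in FL and 98.3 to 961 CPM (median 164) in HGC of TERM, and 45.9 to 136 CPM (median 83.1) and 55.9 to 10017 CPM (median 90.0) in LAR. In the liver the difference was lower in TERM for miR-141-3p by -3.40 ± 0.92 (edgeR, adjusted p = 0.0481) and for miR-200c-3p by -4.32 ± 1.08 (adjusted p = 0.0231), where 1% of 798 liver miRNAs passed, all lower, the LAR livers being those described above. None of the 4 passed among matching libraries or without the 11 pools. Without the pools miR-141-3p of heart read 4.12 ± 1.15 (edgeR, adjusted p = 0.0510) and miR-200c-3p of heart 2.68 ± 1.05 (0.161), and in matching libraries 1.84 and 1.63. In the liver miR-141-3p read -0.50 in both sets, and miR-200c-3p 0.16 and 0.17. Without a filter on low counts miR-141-3p of liver did not pass either (-3.36 ± 0.89, edgeR, adjusted p = 0.0751). Leaving out single heart or liver libraries gave 2 to 6 calls, and 13 different libraries each brought the count to 2, among them FL TERM heart mouse 14, HGC LAR heart mouse 8 and FL LAR liver mice 2 and 4.

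Age was examined because flown mice were of 3 or 8 months. In LAR no member passed for 8 against 3 months (0 of 60 pairs by edgeR, 8 at an unadjusted p below 0.05, 0.296% of all pairs called), nor for the interaction of age and flight (0 of 60, 9 unadjusted, 0.113%). For FL against HGC the count was 0 of 60 at 3 months (7 unadjusted, 0.227%) and 0 of 60 at 8 months (16 unadjusted, 0.576%). The diaphragm had the lowest p for the interaction, with miR-429-3p at -5.20 ± 2.05 on the log2 scale (edgeR, adjusted p = 0.188).

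In the diaphragm of LAR at 8 months the 5 FL libraries held the family at 111, 122, 171, 174 and 194 CPM. The 5 HGC libraries held it at 112, 227, 1082, 2497 and 28586 CPM. All FL libraries were low and matched their label, while the HGC libraries ran from the same level upwards, with the highest closest to kidney and the next to BAT. At 3 months the FL libraries held 162, 2380, 2385, 16244 and 51532 CPM and the HGC libraries 128, 523, 2088, 3588 and 85089 CPM, which overlapped. At 8 months the log2 fold change of miR-200b-3p was -4.92 ± 1.64 (edgeR, adjusted p = 0.214).

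In TERM all 5 members fell with age in MAT, of 60 pairs tested and against 1.83% of all pairs called. In MAT itself 13.9% of 933 miRNAs passed and 10.8% fell. miR-200a-3p was 20.7 to 1573 CPM (median 124, n = 15) at 3 months and 6.76 to 286 CPM (median 21.1, n = 14) at 8 months, and the log2 fold change was -3.05 ± 0.54 (edgeR, adjusted p = 0.00252). miR-429-3p had medians of 509 and 115 CPM (-3.02 ± 0.66, adjusted p = 0.00315), and miR-200b-3p 905 and 178 CPM (-2.45 ± 0.52, adjusted p = 0.00252). miR-141-3p had 156 and 83.5 CPM (-2.15 ± 0.48, adjusted p = 0.00376), and miR-200c-3p 2121 and 906 CPM (-1.79 ± 0.52, adjusted p = 0.0238). The ages overlapped for every member.

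The call was kept for all 5 without the pools of mixed profile (2.1% of all pairs called) and when any single MAT library of TERM was left out. Without TMM factors miR-200c-3p no longer passed (-1.43 ± 0.49, edgeR, adjusted p = 0.0537), and the other 4 members did. In addition, 9 of the 15 libraries at 3 months and 11 of the 14 at 8 months were closest to another tissue, 1 and 8 of them to spleen. In the matching libraries the summed family was 1545 to 5115 CPM (median 2534, n = 6) at 3 months and 795 to 1563 CPM (median 1500, n = 3) at 8 months. With arm and age as terms, a fit on these 9 libraries chosen after seeing the data gave -0.83 to -2.36 for the members and no call (edgeR, adjusted p = 0.0725 to 0.288, 2.63% of 761 miRNAs passing). Blood-cell markers (miR-150-5p, miR-142a-3p and miR-223-3p) had a median of 18373 CPM (1886 to 134753) at 3 months and 108852 CPM (8830 to 187463) at 8 months. Their part in the lower family share was not tested. In LAR, where the family in MAT had medians of 34237 CPM at 3 months and 43551 CPM at 8 months, no member passed. Of the 5p strands 4 of 57 pairs passed in TERM, all in MAT. Of 144 pairs of other epithelial miRNAs 12 passed, with 8 lower at 8 months and all 8 in MAT.

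TERM was lower than LAR for 8 of 65 pairs, and for none higher, against 7.86% of all pairs called. All 5 members were lower in MAT, where 42% of 823 miRNAs passed and 17.3% were lower. miR-141-3p in MAT had medians of 3257 CPM in LAR (n = 28) and 107 CPM in TERM (n = 29), with a log2 fold change of -3.93 ± 0.53 (edgeR, adjusted p = 1.08e-07). miR-200b-3p had 8104 and 259 CPM (-3.41 ± 0.50, adjusted p = 5.65e-07), and miR-200a-3p 1170 and 49.0 CPM (-3.27 ± 0.54, adjusted p = 4.73e-06). miR-200c-3p (-2.59) and miR-429-3p (-2.53) moved the same way.

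Of the 28 LAR libraries of MAT 18 were closest to pancreas. The exocrine pancreas markers had a median of 16122 CPM (3.81 to 37744) in LAR and 61.1 CPM (1.27 to 15931) in TERM. The part of pancreas in the difference between LAR and TERM of MAT was not tested. In matching libraries the family in MAT had a median of 10396 CPM in LAR (n = 5) and 1852 CPM in TERM (n = 9), and no member passed (-0.02 to -0.99). Without the pools of mixed profile alone all 5 members passed, lower in TERM by -3.52 to -4.33 (edgeR, highest adjusted p = 2.05e-05). In the diaphragm miR-141-3p was lower in TERM, with 1.45 to 6181 CPM (median 32.4, n = 30) in LAR and 0.977 to 601 CPM (median 13.5, n = 29) in TERM (-3.16 ± 0.77, edgeR, adjusted p = 0.00865). Of 903 miRNAs in the diaphragm 4.43% passed and 1.33% were lower. In matching diaphragms the change was -0.54 (adjusted p = 0.745).

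Matching libraries showed a smaller change in the liver that the full set did not. miR-200c-3p had medians of 159 CPM (111 to 437, n = 24) in LAR and 267 CPM (110 to 551, n = 27) in TERM, with a log2 fold change of 0.67 ± 0.12 (edgeR, adjusted p = 1.08e-04). miR-200b-3p rose by 0.50 ± 0.09 (adjusted p = 1.40e-04), miR-141-3p by 0.55 ± 0.13 (0.00422) and miR-429-3p by 0.50 ± 0.13 (0.0130). In the pancreas miR-141-3p was higher in TERM by 1.21 ± 0.34 (0.00688), and in the thymus miR-200c-3p was lower by -0.38 ± 0.11 (0.00419). With the brain pairs below, this gave 8 calls on matching libraries, where 7.64% of all pairs passed, and 2 of them were also called on all libraries. Without the 11 pools 17 pairs passed (10.9% of all pairs), among them all 5 members in the heart, higher in TERM by 1.93 to 3.44. The FL TERM heart mouse 14, closest to kidney, was still in that set. For these fits the share of all miRNAs passing within liver, pancreas, thymus or heart was not taken. A change of the family therefore cannot be told from a wider change of the tissue's miRNAs.

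The brain was the only tissue in which all libraries matched their label, and its family level nevertheless spread over more than 100-fold. In LAR, all of 3 months, the sum was 124, 741, 4736 and 8055 CPM in FL, 79.6, 164, 6502 and 10026 CPM in HGC, and 427, 469, 7249 and 12415 CPM in VGC. Each arm thus had a pair of low and a pair of high brains. In TERM it was 131, 483, 3060 and 5421 CPM in FL, 299, 551, 783, 1187 and 1735 CPM in HGC, and 142, 151, 159 and 163 CPM in VGC. The VGC brains of TERM were all low, and the 2 highest FL brains were those of 8 months. For FL against VGC in TERM brains miR-200c-3p was 52.7, 120, 468 and 3494 CPM in FL and 36.9, 38.3, 67.9 and 85.2 CPM in VGC, groups that overlapped. The log2 fold change was 4.08 ± 1.03 by edgeR (adjusted p = 0.155) and 4.11 by DESeq2 (adjusted p = 0.00173), and the other members read 3.44 to 4.03 by edgeR with the same adjusted p. FL mouse 17, the highest of these, was in a pool of mixed profile. This brain also held miR-375-3p at 7542 CPM (median over all brains 197), exocrine pancreas markers at 1698 CPM (median 17.2) and striated-muscle miRNAs at 23890 CPM (median 1719). Their part in the difference was not tested.

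miR-200a-3p was 3.09 to 894 CPM (median 124, n = 12) in LAR brains and 1.67 to 120 CPM (median 17.5, n = 13) in TERM brains, with a log2 fold change of -3.14 ± 0.74 (edgeR, adjusted p = 0.0201). miR-429-3p was 34.5 to 4616 CPM (median 1151) and 21.7 to 1761 CPM (median 155), with -2.86 ± 0.73 (edgeR, adjusted p = 0.0361). Of 1088 miRNAs in the brain 1.47% passed and 0.643% were lower in TERM. The other members read -2.83 for miR-141-3p, -2.68 for miR-200b-3p and -2.08 for miR-200c-3p, and did not pass. Leaving out each of the 25 brains in turn ended the call of miR-200a-3p in 7 cases and that of miR-429-3p in 17. Without the pools of mixed profile miR-429-3p did not pass (-2.59 ± 0.75, edgeR, adjusted p = 0.0822), whereas miR-200a-3p did (-2.99 ± 0.77, adjusted p = 0.0359). LAR brains were all of 3 months, whereas TERM brains were of both ages. Among 3-month brains alone the summed family was 79.6 to 12415 CPM (median 2739, n = 12) in LAR and 131 to 1735 CPM (median 231, n = 8) in TERM, and the ranges overlapped. In a fit on these brains alone, added once the data had been seen, the members read -3.44 to -4.05 and none passed (edgeR, adjusted p = 0.0604 to 0.0878, 0.563% of 1065 miRNAs passing).

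In the brain the family moved with the miR-183 cluster, whose members were among the miRNAs most like it across tissues and which is known from photoreceptors, hair cells and the pineal gland. The brains fell to either side of a gap in miR-182-5p, 16 at 35.3 to 189 CPM with 79.6 to 1735 CPM of the family, and 9 at 509 to 1730 CPM with 1187 to 12415 CPM of the family, so the relation was taken on each side, on log2 levels. Below the gap Pearson's r was 0.81 (permutation p = 0.00022) and Spearman's rho 0.82 (permutation p = 0.00016), with adjusted p of 0.0018 and 0.00081 over 9 relations, and r was 0.81 without the 2 brains farthest from the median of miR-182-5p. Within that side r was 0.96 in the 6 LAR brains (exact permutation p = 0.0125, adjusted p = 0.0225, rho = 0.89 with adjusted p = 0.05) and 0.74 in the 10 TERM brains (permutation p = 0.0159, adjusted p = 0.0238, rho = 0.73 with adjusted p = 0.0370). Above the gap r was 0.85 and rho 0.82 in 9 brains (exact permutation p = 0.00243 and 0.0108, adjusted p = 0.00547 and 0.0242), but r was 0.49 without the 2 farthest and 0.30 in the 6 LAR brains alone (exact permutation p = 0.578), so the relation on that side rested on a few TERM brains. miR-96-5p (r = 0.76, rho = 0.83) and miR-183-5p (r = 0.76, rho = 0.76) followed the family below the gap in the same way (permutation test, adjusted p for r of 0.0018 and 0.00285). Above it r was 0.73 and rho 0.42 for miR-96-5p in the 9 brains (exact permutation test, adjusted p = 0.0327 and 0.303), with r = 0.39 without the 2 farthest. For miR-183-5p r was 0.65 and rho 0.65 (exact permutation test, adjusted p = 0.0642 and 0.0856), with r = 0.52 without the 2 farthest. The relation was sought after the likeness across tissues had been seen, and the gap was chosen in these brains as the widest in miR-182-5p itself. The 9 relations share libraries, and their miRNAs come from a single cluster, so they are not separate support for each other. miR-96-5p and miR-183-5p were themselves lower in TERM brains, by -3.01 and -2.76 on the log2 scale (edgeR, adjusted p = 0.0158 for each). The brain markers miR-124-3p and miR-9-5p summed to 80285 to 292810 CPM in LAR and 128648 to 288569 CPM in TERM. The lowest value was that of the highest family library, VGC LAR mouse 5, which also held striated-muscle miRNAs at 42072 CPM and was the least brain-like, with r = 0.766 to the brain profile against a median of 0.974.

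**Figure D5:**
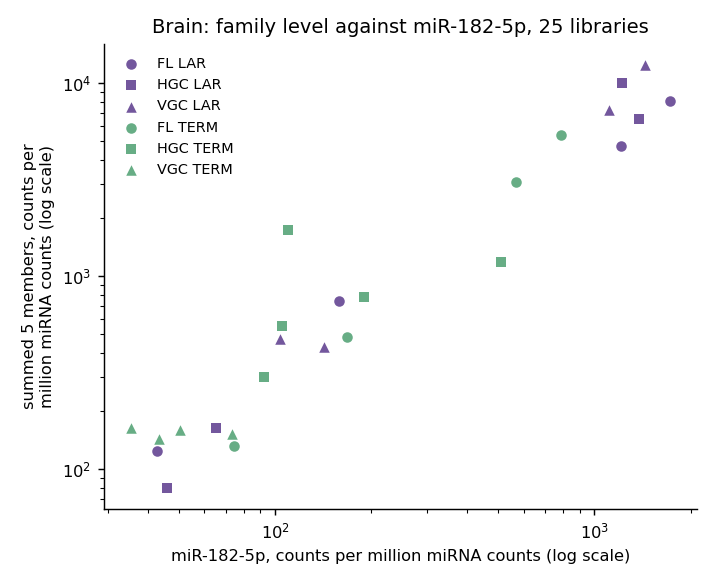
Summed family against miR-182-5p in 25 brain libraries, both in CPM on log axes, with 1 point per mouse, the shape giving the arm and the colour the extraction group. The 16 brains at or below 189 CPM of miR-182-5p reach no more than 1735 CPM of the family, and the 9 brains at or above 509 CPM reach 12415 CPM.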

How the data were processed

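Small RNA libraries (MGIEasy kit, BGISEQ500RS) of 686 mouse tissues were mapped by the authors to GRCm39 and miRBase with miRMaster, as the study's methods and processing notes state. The miRNA table that the authors deposited holds estimated counts (0.790% of values carry a fraction), and those of the other 6 RNA classes that the authors deposited are whole counts. No value was normalized. Samples were grouped by labelled tissue, arm, extraction and age, and pools and plates were taken from the study's sample sheet. Identical mouse numbers across tissues of an arm and extraction group are the same animal, and across arms they are different animals.

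CPM was computed over miRNA counts. For each tissue, estimated counts were rounded, miRNAs with 5 or more reads in 10% of the libraries of any arm were kept, and edgeR 4.0.16 (R 4.3.3) was fitted with TMM factors and its quasi-likelihood test. Adjusted p-values are Benjamini-Hochberg over all miRNAs of the tissue, with a call below 0.05. The SE was taken as the log2 fold change over the root of F. Ratios and correlations were tested by permutation (scipy 1.17.1). Shares of the 5p strand used libraries with 200 or more counts of the pair. Tissue profiles were compared by Pearson's r over 720 miRNAs, and 11 of 44 pools had more than 1 in 3 libraries closest to another tissue. The fits and the ratio test were checked on simulated data.

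Positions come from RefSeq and the GENCODE annotation of GRCm38, not the build of the mapping. The named miRNAs were the 5 members, their 5p strands, 12 other epithelial miRNAs, the 5 most alike across tissues, and the 3 highest libraries of heart, diaphragm and each fat. The family, the lists and the tests were chosen with earlier results of these data known. The alternatives were other scalings, no filter, DESeq2 1.42.0, a Wilcoxon test and an effect-size rule after the study's methods, plate, the replicate block, other library sets and single libraries left out. Mice of different arms that share a number are different animals, and their deviations correlated weakly (mean r per tissue from -0.10 to 0.10, above that of mice with other numbers in 5 of 13 tissues of LAR and 10 of 13 of TERM). As 103 of 334 pairs in LAR and 129 of 319 in TERM, not all, were over 0.1, numbers were not taken to pair arms.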

Additional observations from a re-analysis of the deposited data

Results flagged for a closer look

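In groups of 4 to 10 libraries of the same tissue, arm and extraction, the summed family (in CPM) had a library far from the others in 22 of 77 groups checked, by Dixon's criterion, where chance gives about 1 in 20. Of the 22 libraries 9 were high and 13 low, and 21 were closest to another tissue by their other miRNAs.

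High libraries, with the range of the rest of the group, were in the diaphragm VGC TERM mouse 12 (17809 against 125 to 1110, closest to pancreas), in GAT VGC LAR mouse 1 (70253 against 197 to 3037, pancreas) and in the heart HGC LAR mouse 8 (17887 against 91.6 to 425, lung). In the liver it was VGC TERM mouse 14 (6388 against 514 to 1439, thymus) and in MAT HGC TERM mouse 5 (6909 against 1203 to 2745, BAT). In the spleen these were HGC TERM mouse 13 (25550.3 against 785 to 3969, kidney), VGC LAR mouse 17 (17064 against 752 to 1477, lung) and VGC TERM mouse 13 (16668 against 728 to 1471, lung). In the thymus VGC LAR mouse 13 stood at 33316 against 8026 to 14475 (kidney).

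Low libraries were in the kidney FL LAR mouse 3 (5688 against 22565 to 44590, closest to diaphragm) and HGC LAR mouse 1 (839 against 28480 to 34381, GAT), and in the liver HGC TERM mouse 11 (260.2 against 669 to 1755, heart). In the lung they were FL LAR mouse 14 (140.3 against 13470 to 18970, heart) and FL TERM mouse 14 (796 against 14839 to 30328, BAT). In the pancreas they were FL LAR mouse 13 (1037 against 14460 to 118495, GAT), VGC LAR mouse 14 (21518 against 70263 to 108107, spleen) and HGC LAR mouse 14 (12469 against 67409 to 139222), the only one of the 22 that matched its label. In SCAT they were HGC TERM mouse 11 (1306 against 5400 to 16064, BAT) and VGC TERM mouse 2 (1512 against 7277 to 18566, spleen). In the thymus they were HGC LAR mouse 13 (1079 against 7503 to 13172, spleen), HGC TERM mouse 11 (114 against 7349 to 18480, heart) and VGC TERM mouse 11 (174 against 6032 to 32323, heart).

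The flight difference differed between TERM and LAR by the interaction test for miR-141-3p (6.56) and miR-200c-3p (5.80) in the heart and for miR-141-3p (-3.40) and miR-200c-3p (-4.32) in the liver, on the log2 scale, and for none of them among matching libraries.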

How the results depend on the processing

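Counts of called members are out of 65 or 60 pairs. For FL against HGC in LAR the count of 3 became 6 with DESeq2, 1 with the effect-size rule, 1 with counts over 7 classes (2.46% of all pairs called; miR-141-3p, miR-200b-3p and miR-200c-3p of liver read 2.59, 2.30 and 3.28 at adjusted p of 0.0731, 0.151 and 0.0731), and 0 with the Wilcoxon test, matching libraries, no mixed pools, plate as a term or the replicate block (mouse numbers shared across arms), which changed no other count. Without a filter miR-200b-3p of liver missed the threshold (3.10 in both fits, adjusted p = 0.0501), and with plate as a term the liver pairs read 2.03, 1.54 and 1.34. The rule gave 3 (FL against VGC, LAR), 1 (HGC against VGC, LAR), 9, 13 and 7 (FL against HGC, FL against VGC and HGC against VGC, TERM) in place of 0, and DESeq2 gave 5, 1 and 7 for FL against VGC in LAR, FL against HGC in TERM and FL against VGC in TERM. The last became 3 without TMM (1.01%) and 5 without a filter (0.56%), and age in LAR 3 without a filter (0.344%). Age in TERM became 0 on matching libraries without MAT, which lacked FL at 8 months; with arm and age as terms instead, chosen after seeing the data, its members read -0.83 to -2.36 and none passed. Without TMM miR-200c-3p of MAT lost its call for age (adjusted p = 0.0537). TERM against LAR became 17 without mixed pools, with all 5 members of MAT among them but not miR-429-3p of brain (adjusted p = 0.0822). On 3-month brains alone, also chosen after seeing the data, no brain call was kept (lowest adjusted p = 0.0604). The interaction of flight and extraction became 7 without TMM (0.856%) and 0 on matching libraries or without mixed pools. Without a filter miR-141-3p of liver lost its call for the interaction (-3.36, edgeR, adjusted p = 0.0751). Leaving out single libraries gave 0 to 4 calls for FL against HGC and 0 to 3 for FL against VGC in LAR, 0 to 5 for FL against VGC in TERM, 6 to 10 for TERM against LAR, 5 to 5 for age in TERM, 2 to 6 for the interaction, and 0 to 0 elsewhere. It was not run for age in LAR, where no member had passed. Among named pairs, reversals were in liver, for miR-200b-3p in FL against HGC (-0.0174 by Wilcoxon and the rule, -0.17 on matching libraries and without mixed pools), miR-200c-3p (-0.0776, -0.31 and -0.31) and its interaction (0.17 on matching libraries, 0.16 without mixed pools). The lung and pancreas difference in balance was 0.0124 on matching libraries, 0.0723 in LAR alone, -0.59 in TERM alone (adjusted p = 0.0903) and -0.67 with the mean of log2 levels, where alone it passed the test (adjusted p = 5e-05). The kidney differences kept direction and call throughout. The ratio of pancreas to heart was 45.7 over 7 classes. The cause was not tested where no value is given beside it. miR-200a-3p had its lowest tissue medians in the heart (4.03 CPM) and the diaphragm (10.6 CPM). The floor was 0.774 CPM in the median library and 16.5 CPM in the shallowest, so depth limits it there.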
